A study of Mus musculus with 12 samples.

Results

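The 281 gene-dense megabase bins described here are the 1 Mb windows of the mouse autosomes that hold 20 or more transcription start sites (TSS) of protein-coding genes, with 1 start per gene taken from the GENCODE annotation of the mm10 build. They were chosen from the annotation alone, among 2473 autosomal windows, of which 2403 had at least 500 kb of known bases and were kept, all 281 members among them. The members made up 11.7% of the kept bins and held 8662 of 20807 protein-coding genes (41.6%). The study mapped chromatin contacts in mouse E14Tg2A embryonic stem cells (ESC) kept with LIF at 100 U/mL and in neuronal committed cells (NCC), made from the same line by 48 h of 1 μM retinoic acid in medium without LIF. Hi-C recorded contacts over the whole genome, and HiChIP enriched contacts at chromatin bound by FGFR1, a fibroblast growth factor receptor that also occurs in the nucleus, or by CTCF, the zinc finger protein that holds many chromatin loops. Each of the 6 tables listed interactions between pairs of anchors (genomic segments found in that library by itself) with the number of read pairs joining them, and each had 2 biological replicates merged, so that no spread between replicates could be computed. Each state was thus represented by 1 merged table per assay, from 1 cell line.

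Gene-dense chromosome segments are, as a rule, rich in G and C, replicate early in S phase and lie in the active (A) compartment towards the interior of the nucleus, where such segments of different chromosomes meet around nuclear speckles. Ubiquitously expressed genes, whose promoters are often CpG islands, are frequent in them. A second kind of gene-dense segment is made by tandem gene families such as the olfactory and vomeronasal receptors, which are crowded but silent in most cells, each sensory neuron using few of them, and which are packed as heterochromatin there.

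Both kinds were present among the members. In 33 bins at least 50% of the starts belonged to olfactory (Olfr), vomeronasal (Vmn1r, Vmn2r) or trace amine (Taar) receptor genes, and these are called chemosensory bins below. They held 1125 genes, and the other 248 members held 7537. The sequences just upstream of 5 member genes show the contrast. Atp5d (the delta subunit of ATP synthase) lies in the member with the most contact ends, Rcn3 (a calcium-binding protein of the secretory pathway) in the member with the most genes, and Olfr638, Olfr1188 and Vmn1r24 in chemosensory bins. Each run holds the 150 bases before the start, read 5′ to 3′ on the strand of the gene from GRCm38, in lower case with every CG dinucleotide in capitals.
Atp5d, chr10:80138482-80138631, plus strand: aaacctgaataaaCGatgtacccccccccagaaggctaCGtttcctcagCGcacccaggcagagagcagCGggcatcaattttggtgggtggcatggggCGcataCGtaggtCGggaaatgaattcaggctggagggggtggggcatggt
Rcn3, chr7:45092222-45092371, minus strand: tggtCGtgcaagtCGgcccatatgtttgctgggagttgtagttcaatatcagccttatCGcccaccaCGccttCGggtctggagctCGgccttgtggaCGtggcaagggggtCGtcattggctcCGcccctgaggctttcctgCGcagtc
Olfr638, chr7:103998596-103998745, plus strand: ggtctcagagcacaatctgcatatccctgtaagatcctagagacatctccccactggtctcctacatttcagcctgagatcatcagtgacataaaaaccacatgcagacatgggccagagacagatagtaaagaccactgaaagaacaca
Olfr1188, chr2:88556785-88556934, plus strand: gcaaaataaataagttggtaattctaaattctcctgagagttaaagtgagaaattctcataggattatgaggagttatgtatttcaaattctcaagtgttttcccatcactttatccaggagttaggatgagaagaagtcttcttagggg
Vmn1r24, chr6:57961504-57961653, minus strand: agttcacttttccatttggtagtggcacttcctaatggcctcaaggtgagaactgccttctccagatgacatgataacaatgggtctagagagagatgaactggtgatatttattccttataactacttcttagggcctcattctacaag

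The Atp5d and Rcn3 runs held 7 and 10 CG dinucleotides, and the 3 receptor runs held 0. CG was searched as these 2 letters, which read the same on both strands. Over all 20762 genes of the kept bins, in windows of this length, the median was 6, and 87.6% had at least 1. The median was likewise 6 for the 7537 genes of the members that were not chemosensory and 7 for the 12100 genes of other bins. For the 1171 receptor genes in members it was 0, with 58.4% holding none. The 237 genes of the core cellular machinery in members (replication-dependent histones, cytoplasmic and mitochondrial ribosomal proteins, respiratory chain, spliceosome, proteasome and RNA polymerase) had a median of 9.

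The members did not lie evenly along the genome. They formed 138 runs of adjoining bins, 76 of them single bins, and the other 62 runs held 205 bins. The longest runs had 8 bins, at 84 to 92 Mb of chromosome 2, 18 to 26 Mb of chromosome 7 and 96 to 104 Mb of chromosome 11. Chromosome 7 had 36 members, 10 of them chemosensory. Chromosome 11 had 32 members with 3 chemosensory ones, and chromosome 2 had 27 with 8. Chromosome 12 had 5 members and chromosome 18 had 3. Median G+C content was 46.5% in the members that were not chemosensory, 39.5% in chemosensory bins and 41.3% in the 2122 other bins. The cut site of the assay, GATC, was about as frequent in all 3 kinds, at medians of 2.53, 2.75 and 2.46 per kb. Repeat-masked bases made up a median of 30.6%, 46.9% and 31.8% of these bins. CpG-rich promoters (G+C of 50% or more and a CpG observed-to-expected ratio of 0.6 or more within 500 bp of the start) belonged to 44.2% of the genes in members that were not chemosensory, 5.87% of those in chemosensory bins and 50.5% of those in other bins. Of the genes shown above, Atp5d had a CpG-rich promoter by this definition, and Rcn3 and the receptor genes did not.

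Several gene families lay mostly in members. Of the autosomal genes of each family, the members held 1171 of 1470 chemosensory receptors, 66 of 67 histones, 134 of 146 keratins and other epidermal genes, 34 of 34 major histocompatibility complex (MHC) genes, 57 of 57 protocadherins, which give neurons surface identities, and 16 of 18 interferons. Apart from the histones, the core machinery was less concentrated. Members held 36 of 79 cytoplasmic ribosomal proteins, 41 of 96 respiratory chain genes, 16 of 34 spliceosome genes, 25 of 49 proteasome genes and 14 of 28 RNA polymerase subunits. Those shares lay between 42.7% and 51%, near the 41.6% of all autosomal protein-coding genes. The Hox genes, which set position along the body axis, had 18 of 39 starts in 2 members.

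Hi-C was far deeper than HiChIP. The autosomal read pairs numbered 20643821 in ESC and 21142644 in NCC Hi-C, 2645713 and 3177422 in FGFR1 HiChIP, and 1210721 and 1049415 in CTCF HiChIP. The tables held 165820 to 245035 autosomal anchors with a median length between 2216 and 2923 bp. Members received 22.2% of the autosomal read-pair ends in ESC Hi-C, 21.7% in NCC Hi-C, 17% and 14.4% in FGFR1 HiChIP (ESC, NCC) and 18.7% and 17% in CTCF HiChIP. All intervals given are 95% counting intervals. They cover counting error only, and because read pairs from amplified libraries are not independent molecules, they are narrower than the spread between cultures would be.

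Contact ends were more frequent in gene-dense bins than in other bins in all 6 tables, and the chemosensory members were the exception. The measure is ends per kb, the read-pair ends summed over anchors centred in a bin and divided by the known kb of the bin. In ESC Hi-C the median was 38.5 ends per kb in members that were not chemosensory, 4.98 in chemosensory bins and 12.5 in other bins. NCC Hi-C gave 38.4, 4.04 and 12.8 in the same order. FGFR1 HiChIP gave 3.66, 1.12 and 1.97 in ESC and 3.72, 1.61 and 2.57 in NCC. CTCF HiChIP gave 1.83, 0.503 and 0.859 in ESC and 1.46, 0.417 and 0.786 in NCC. Bins with no protein-coding start were lower than all of these in Hi-C, at medians of 3.37 in ESC and 2.98 in NCC.

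Counted bin by bin, 231 of 281 members (82.2%) lay above the median of other bins in ESC Hi-C, where 53.8% of all kept bins did, and 228 (81.1%) in NCC Hi-C against 53.6%. In FGFR1 HiChIP 222 members were above it in ESC against 53.4% of all bins and 200 in NCC against 52.5%. In CTCF HiChIP 223 were above it in ESC against 53.4% and 216 in NCC against 53.1%. Of the 33 chemosensory bins, 8 in ESC Hi-C and between 3 and 5 in the other 5 tables lay above that median. The members had the higher median on 18 of 19 autosomes in each table. Chromosome 14, whose members include several nearly empty bins, was the exception, at 0.627 times its other bins in ESC Hi-C, and chromosome 15 was highest, at 4.17 times.

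**Figure D1:**
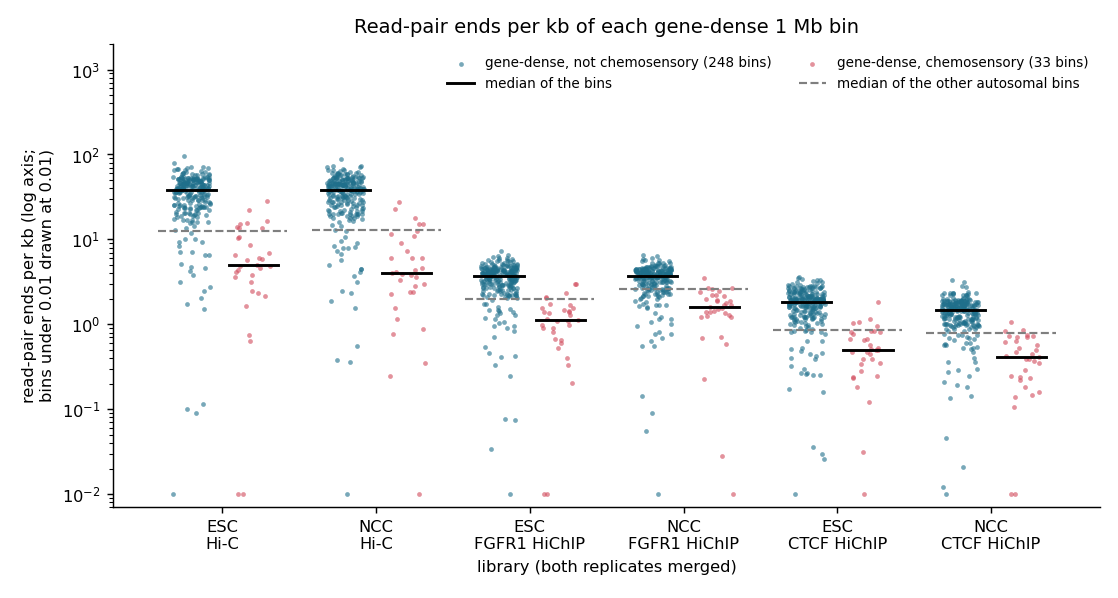
Contact ends per kb (log axis) of each gene-dense bin in the 6 libraries, with chemosensory bins and the other members in separate colours, black marks at the medians of each kind and a grey dashed line at the median of other bins; bins under 0.01 ends per kb are drawn at 0.01. In ESC Hi-C the members that were not chemosensory centred on 38.5 and the chemosensory bins on 4.98, below the 12.5 of other bins.

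G+C content moved with this measure. Across the members, Spearman's rho between G+C and ends per kb was 0.921 in both Hi-C tables and between 0.75 and 0.826 in the HiChIP tables (281 bins of 1 library each, described only, with no test). Among the 248 members that were not chemosensory, rho with the number of starts was 0.345 in ESC Hi-C and 0.308 in NCC Hi-C. The 445 other bins with G+C of 44.2% or more, the lower quartile of those members, had medians of 30.5 ends per kb in ESC Hi-C and 32.2 in NCC Hi-C, and 3.21 and 3.5 in FGFR1 HiChIP. When each member was set against the median of other bins of its own G+C class, 168 of 242 members that were not chemosensory were above it in ESC Hi-C (median ratio 1.15), 148 in NCC Hi-C (1.08), 152 and 134 in FGFR1 HiChIP (1.1 and 1.03), and 168 and 160 in CTCF HiChIP (1.15 and 1.12). Of the chemosensory bins, 16 of 33 were above the median of their class in ESC Hi-C and 11 in NCC Hi-C. In FGFR1 HiChIP 9 and 4 were above it (ESC, NCC), and in CTCF HiChIP 12 and 6.

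Bins on either side of the limit of 20 starts had similar levels. The 24 members with exactly 20 starts had a median of 34.6 ends per kb in ESC Hi-C (2.15 to 57.2), and the 36 bins with 19 starts had a median of 35 (0.049 to 62.1). In NCC Hi-C the medians were 35.7 and 35.9.

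Anchors covered more of the members than of other bins as a whole in Hi-C, though not more than of other bins of like G+C. Their median share of bases inside anchors was 52.9% in ESC Hi-C and 53.6% in NCC Hi-C, compared with 40.4% in other bins in both tables, and the chemosensory bins had 23.7% and 19.9%. In NCC FGFR1 HiChIP the coverage of members, 29.5%, was close to the 29.3% of other bins, and members were higher on 9 of 19 autosomes there. In ESC FGFR1 HiChIP the medians were 27.9% and 24.6%, and members were higher on 16 autosomes. CTCF HiChIP covered 22.1% of members and 18.5% of other bins in ESC, and 21.2% and 19.1% in NCC. The other bins of like G+C had a higher median than members in all 6 tables, with 54.4% and 56.5% in Hi-C, 29.1% and 31.8% in FGFR1 HiChIP and 22.9% and 22.1% in CTCF HiChIP (ESC, NCC).

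The members with the most genes had ends well above the median of members. The bin at 45 to 46 Mb of chromosome 7 had 67 starts, among them Rcn3, whose start lay in an anchor with 1863 ends in ESC Hi-C and 891 in NCC Hi-C. It had 54.6 and 53.8 ends per kb in ESC and NCC Hi-C, 4.58 and 4.43 in FGFR1 HiChIP, and 2.77 and 1.96 in CTCF HiChIP. The bin at 69 to 70 Mb of chromosome 11 had 65 starts, with 59.0 and 57.1 ends per kb in Hi-C, 6.39 and 5.26 in FGFR1 HiChIP, and 3.28 and 2.36 in CTCF HiChIP. Its start anchor with the most ends in ESC Hi-C, 2317, was that of Kdm6b, a histone H3 lysine 27 demethylase, with 2297 in NCC Hi-C. The Kdm6b start lay in no anchor of the 4 HiChIP tables. The bin at 35 to 36 Mb of chromosome 17 had 62 starts, including 7 MHC and 6 Ly6 genes, a family of surface proteins. It reached 51.4 and 48.0 ends per kb in Hi-C, with 1172 ends in ESC Hi-C at the H2-Q7 start anchor. These levels are not scaled for the read pairs each table held, which were fewer in NCC than in ESC for CTCF HiChIP.

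The member with the most ends was at 80 to 81 Mb of chromosome 10, with 53 starts and 53.7% G+C. It had 95.6 ends per kb in ESC Hi-C and 88.9 in NCC Hi-C, 6.28 and 5.71 in FGFR1 HiChIP, and 3.51 and 3.16 in CTCF HiChIP. The starts of Atp5d and Cbarp shared 1 anchor there, with 3466 ends in ESC Hi-C and 3236 in NCC Hi-C. Rps15, a ribosomal protein gene, had 2209 ends at its start anchor in ESC Hi-C and 735 in NCC Hi-C. Since anchors were found in each library separately, the length of such an anchor can differ between tables, and these counts are not scaled. Next in ESC Hi-C were the bins at 116 to 117 Mb of chromosome 11 (78.5 ends per kb), 56 to 57 Mb of chromosome 17 (71.4), 120 to 121 Mb of chromosome 11 (70.8) and 70 to 71 Mb of chromosome 8 (69.2). The second of these holds Rpl36, a ribosomal protein gene with 1892 ends at its start anchor, and the third holds Fasn, the fatty acid synthase gene, with 1238. At 70 to 71 Mb of chromosome 8 the starts of Arrdc2 and Comp (a cartilage matrix protein) had 3213 and 2486 ends. By a rule of 3 scaled median absolute deviations on the log scale, no member was high in any of the 6 tables.

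The same rule marked 38 members as low in ESC Hi-C, 21 of them chemosensory, and 39 in NCC Hi-C with 23 chemosensory ones. In HiChIP it marked 29 and 27 (FGFR1, ESC and NCC) and 27 and 29 (CTCF). These members are low against the median of members only, and the share of all bins below the same cuts is not given here. Low levels were frequent elsewhere, as the lower quartile of other bins was 5.6 ends per kb in ESC Hi-C and 5.43 in NCC Hi-C. Some of the low members outside the chemosensory class held other tandem families. The bin at 132 to 133 Mb of chromosome 6 holds bitter taste receptors such as Tas2r102 and had 1.5 ends per kb in ESC and 2.36 in NCC Hi-C. The bin at 21 to 22 Mb of chromosome 8, with 31 defensins (antimicrobial peptides) among its 39 genes, had 2.02 and 2.47. The bin at 27 to 28 Mb of chromosome 13, home of the prolactin family, had 2.76 and 1.54. At 67 to 68 Mb of chromosome 13, where 23 of 32 starts are of zinc finger genes, the values were 4.58 and 3.68.

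Some members had almost no ends at all. The bins at 21 to 22 and 22 to 23 Mb of chromosome 7, with 16 of 22 and 13 of 27 starts from chemosensory receptors, had 0 ends in all 6 tables, which allows up to 3 ends in each. Their neighbour at 20 to 21 Mb had 0 ends in ESC Hi-C and 244 in NCC Hi-C, at least 79.4-fold more after scaling to equal autosomal ends. In FGFR1 HiChIP that neighbour had 0 in ESC and 28 in NCC, and in CTCF HiChIP 31 in ESC and 5 in NCC. The bins at 4 to 5, 5 to 6 and 6 to 7 Mb of chromosome 14, which hold clusters of predicted genes, had 116, 90 and 100 ends in ESC Hi-C and 385, 355 and 551 in NCC Hi-C. The first of the 3 had the highest share of ends on other chromosomes of all members, 50% in ESC and 46.8% in NCC Hi-C. Reads from near-identical gene copies map ambiguously, and no mappability track was analysed here, so few ends in these bins cannot be told apart from reads that could not be placed.

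At the level of single genes, 6175 of the 8662 starts in members (71.3%, 70.3 to 72.2) lay inside an ESC Hi-C anchor, and 78.4% of starts in other bins did. The share was 77.7% outside the chemosensory bins and 28.1% in them. CpG-rich promoters were in anchors in 94.4% of cases in members and 95.3% in other bins, and other promoters in 56.4% and 61.1%. Of the core machinery genes of members, 199 of 237 had their start in an anchor (84%, histones included), and of the tandem families 488 of 1568 (31.1%). The shares were similar in other bins, at 87.6% for the core machinery and 30.5% for the tandem families. All 14 RNA polymerase subunit genes, 39 of 41 respiratory chain genes and 31 of 36 ribosomal protein genes were in anchors, in contrast to 294 of 1171 chemosensory receptors and 9 of 42 defensins. The histone genes had 42 of 66, and zinc finger genes, which belong to neither group, 185 of 219. In NCC Hi-C the counts for RNA polymerase, respiratory chain, ribosomal protein, chemosensory receptor and defensin genes were 11, 40, 31, 220 and 13. The shares over all member starts were 70.2% in NCC Hi-C, 46.7% and 50.1% in FGFR1 HiChIP (ESC, NCC) and 39.3% in ESC CTCF HiChIP.

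Where a start lay in an ESC Hi-C anchor, that anchor had a median of 86.9 ends per kb in members and 59.7 in other bins. Anchors holding a start were 16.3% of the anchors of members, covered 22.1% of their anchor bases and carried 27.5% of their ends. In other bins they were 4.11% of anchors, 5.93% of bases and 9.04% of ends. In members the share of ends at such anchors was 26.5% in NCC Hi-C, 19.4% and 20.3% in FGFR1 HiChIP and 18.5% and 21.1% in CTCF HiChIP. In each table it was larger than the share of anchor bases.

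A smaller share of the contact ends of gene-dense bins lay at 1 to 5 Mb, and a larger share below 100 kb, than in other bins. In ESC Hi-C, members that were not chemosensory had 18.22% of their ends at contacts under 20 kb and 18.98% at 20 to 100 kb, compared with 15.37% and 15.78% in other bins. At 1 to 5 Mb they had 3.87% and other bins 5.92%, a log2 ratio of -0.61, and at 5 to 50 Mb 6.14% and 8.04% (-0.39). Over the 6 tables the log2 ratio lay between -0.75 and -0.57 at 1 to 5 Mb and between 0.23 and 0.33 at 20 to 100 kb. The other bins of like G+C shared part of this profile. In ESC Hi-C they had 17.51% at 20 to 100 kb, 5.28% at 1 to 5 Mb and 6.66% at 5 to 50 Mb. In NCC Hi-C they had 6.45% at 5 to 50 Mb, beside 6.57% in members that were not chemosensory. Chemosensory bins differed from the other members at 5 to 50 Mb. They had 10.48% of their ends at 5 to 50 Mb in ESC Hi-C (log2 ratio to other bins 0.38) and 11.63% in NCC Hi-C, where other bins had 7.78% (0.58). Bins without a protein-coding start were also above other bins as a whole there, at 9.78% in ESC and 9.42% in NCC Hi-C. The ratio for chemosensory bins in this class was above 0 in all 6 tables, from 0.23 to 0.58. At 50 Mb or more they had 1.04% in ESC Hi-C, below the 1.15% of other bins, and 1.88% in NCC Hi-C, above the 1.76% of other bins, and they were below other bins in the 4 HiChIP tables. Contacts with other chromosomes took 9.89% of ends in members that were not chemosensory, 10.88% in chemosensory bins and 10.15% in other bins in ESC Hi-C.

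**Figure D2:**
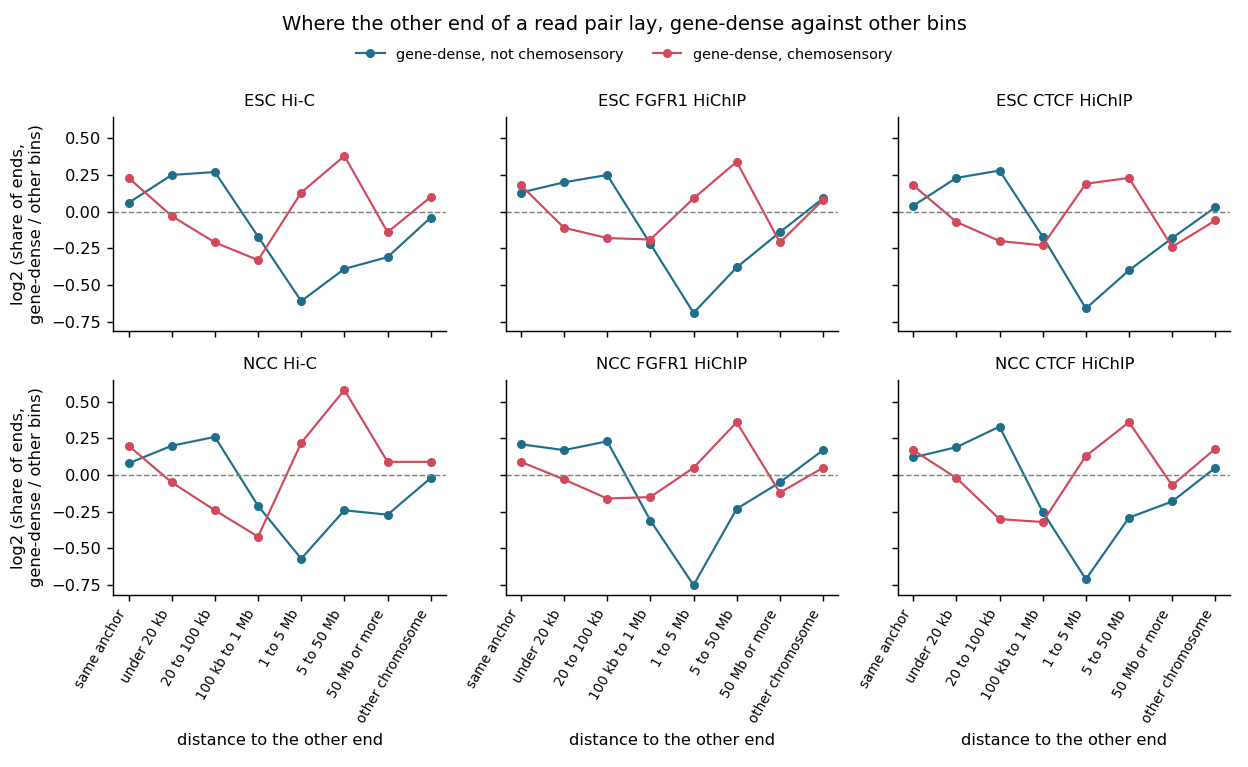
Log2 ratio of the share of read-pair ends in each distance class (same anchor to over 50 Mb, and other chromosomes) in chemosensory members and in the other members over that of other bins, 1 panel per library. At 1 to 5 Mb the members that were not chemosensory lie between -0.75 and -0.57 in all 6 panels.

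In NCC a larger share of ends lay in the longest contacts, in members and in other bins alike. Of the Hi-C ends in members that were not chemosensory, 0.92% joined anchors 50 Mb or more apart in ESC and 1.46% in NCC (log2 ratio 0.66), and in other bins 1.15% and 1.76% (0.62). Other chromosomes took 9.89% and 11.45% of the ends of these members (0.21), and 10.15% and 11.58% in other bins (0.19). In FGFR1 HiChIP that share went from 11.49% to 13.84% in these members (0.27) and from 10.79% to 12.34% in other bins (0.19). Other bins of like G+C went from 10.90% to 13.12%, with the same ratio as these members (0.27). Contacts within 1 anchor fell from 28.92% to 21.80% of ends in these members in CTCF HiChIP (log2 ratio -0.41), and the ratio in other bins was -0.49.

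Gene-dense bins of different autosomes met more often than their totals predict. The expectation for a pair of bins was the product of 2 factors fitted so that every bin kept its own total of inter-chromosomal read pairs. Because those totals include the contacts counted, the ratio of observed to expected (O/E) is drawn towards 1. In ESC Hi-C, 126895 read pairs joined gene-dense bins of different autosomes and 97079 were expected, an O/E of 1.307 (1.300 to 1.314). The ratio was 1.26 in NCC Hi-C, 1.34 and 1.305 in FGFR1 HiChIP (ESC, NCC), and 1.35 and 1.29 in CTCF HiChIP. For members that were not chemosensory it was 1.34 and 1.28 in Hi-C, 1.39 and 1.37 in FGFR1 HiChIP and 1.39 and 1.34 in CTCF HiChIP. The other bins of like G+C met each other at 1.1 and 1.07 in Hi-C and between 1.11 and 1.15 in HiChIP. Bins without a protein-coding start met each other at 1.652 and 1.603 in Hi-C, above the members. Their ratio lay between 1.358 and 1.465 in HiChIP.

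The 2 kinds of gene-dense bin met each other less often than their totals predict. Members that were not chemosensory met chemosensory bins of other autosomes at 0.828 of expectation in ESC Hi-C and 0.822 in NCC Hi-C, and between 0.750 and 0.830 in HiChIP. They met bins without a protein-coding start at 0.703 and 0.727 in Hi-C. Chemosensory bins, in contrast, met such empty bins at 1.34 and 1.39. Among themselves chemosensory bins had 106 inter-chromosomal read pairs in ESC Hi-C, an O/E of 1.35 (1.11 to 1.63), and 99 in NCC Hi-C at 1.56 (1.27 to 1.90). In CTCF HiChIP those counts were 7 and 13, too few to place the ratio.

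Along the same chromosome, over 5 Mb apart and with the expectation also fitted to distance, gene-dense bins met at 1.29 times expectation in ESC Hi-C and 1.23 in NCC Hi-C. FGFR1 HiChIP gave 1.36 and 1.29, and CTCF HiChIP gave 1.32 and 1.300. Without chemosensory bins these were 1.34, 1.27, 1.43, 1.38, 1.39 and 1.36 in the same order. Chemosensory bins met each other at 1.399 and 1.387 in Hi-C and met the other members at 0.747 and 0.739. Members that were not chemosensory met bins without a start at 0.6 to 0.660 over the 6 tables. Bins without a start met each other at 1.707 and 1.670 in Hi-C, above both kinds of member. Chemosensory bins met bins without a start at 1.434 and 1.455 in Hi-C, slightly above their ratio with each other, whereas on other autosomes the ratio with each other was the higher one. The counting intervals of these ratios overlap.

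**Figure D3:**
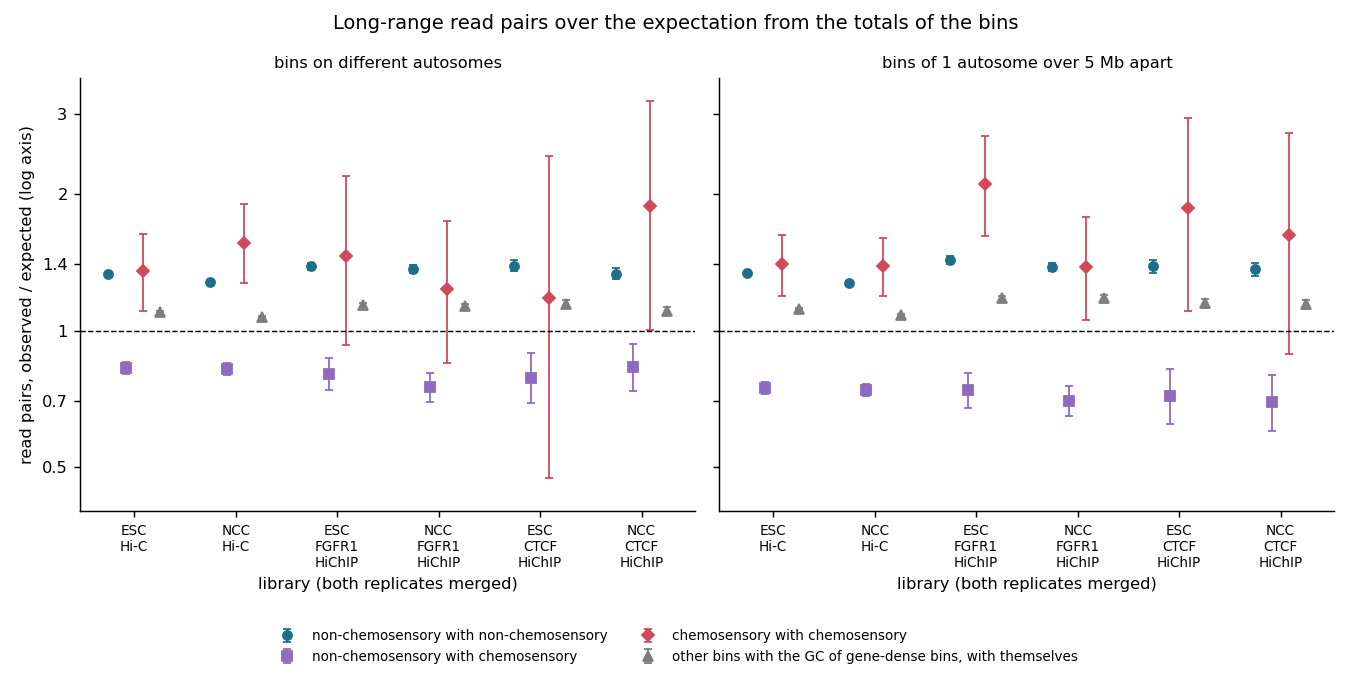
Observed over expected read pairs (with 95% Poisson intervals) between kinds of bin in each library, on other autosomes in one panel and on the same autosome over 5 Mb apart in the other, with a line at 1. Members that were not chemosensory lie above 1 with one another (1.34 in ESC Hi-C on other autosomes) and below 1 with chemosensory bins (0.828).

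By autosome, 163 of 171 pairs of autosomes (95.3%) had an O/E above 1 between their gene-dense bins in ESC Hi-C and 166 (97.1%) in NCC Hi-C. The number was 149 and 157 in FGFR1 HiChIP and 142 and 133 in CTCF HiChIP. In ESC Hi-C the pair of chromosomes 10 and 15 was highest at 1.61, 12 and 14 were lowest at 0.832, and the median was 1.24. Within autosomes, O/E was above 1 on 18 of 18 in both Hi-C tables. Chromosome 10 was highest in all 6 tables, with an O/E of 2.59 in ESC Hi-C and 2 in NCC Hi-C. Its members lie at 75 to 76, 77 to 82 and 127 to 130 Mb. When only interactions with at least 2 read pairs were used, 51.5% of autosome pairs in ESC Hi-C and 4.09% in NCC CTCF HiChIP were above 1, while the O/E over all members was 1.42 and 0.982.

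Single members differed widely in this contact. In ESC Hi-C, 200 of 275 members with at least 20 expected pairs were above 1 with gene-dense bins of other autosomes, 198 of the 244 that were not chemosensory and 2 of 31 chemosensory ones. The bin at 45 to 46 Mb of chromosome 7, with the most genes, and that at 80 to 81 Mb of chromosome 10, with the most ends, were highest at 1.78 each. Next were 81 to 82 Mb of chromosome 10 and 120 to 121 Mb of chromosome 11, at 1.72, and 97 to 98 Mb of chromosome 11, at 1.69. The olfactory receptor bin at 111 to 112 Mb of chromosome 2 was lowest at 0.354. In NCC Hi-C 204 of 277 were above 1, none of them among 30 chemosensory bins, and 81 to 82 Mb of chromosome 10 was highest at 1.63. Across members Spearman's rho of this ratio with G+C was 0.756 and with the number of starts 0.459 in ESC Hi-C, and the ESC and NCC Hi-C ratios had a rho of 0.97 over 274 bins that share their annotation and base composition.

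**Figure D4:**
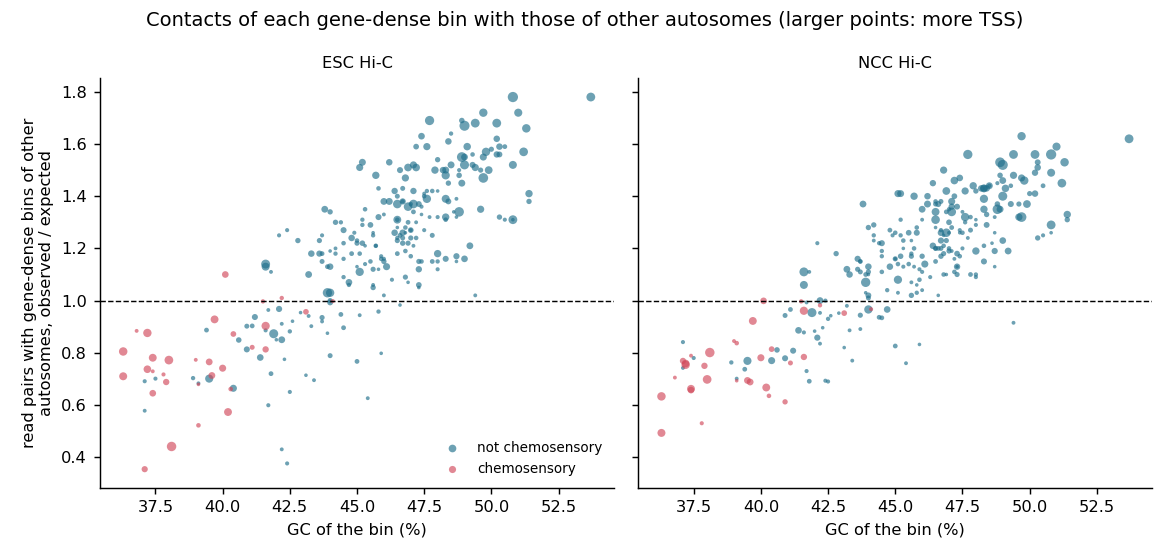
Observed over expected read pairs of each gene-dense bin with gene-dense bins of other autosomes against its G+C content (%), in ESC and NCC Hi-C, with point size by the number of starts and chemosensory bins in their own colour. The ratio is higher in bins of higher G+C, and the chemosensory bins lie below 1 except for 2 in ESC Hi-C.

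Particular pairs of members stood far above expectation. Among the 332 pairs of members on different autosomes with at least 20 read pairs in ESC Hi-C, the bins at 114 to 115 Mb of chromosome 5 and 72 to 73 Mb of chromosome 11 had 63 read pairs in 34 interactions, an O/E of 16.3 (12.6 to 20.9), and 88 read pairs in NCC Hi-C (18.1). The first holds Foxn4, a transcription factor of retinal and spinal neurons, and Git2, and the second Mybbp1a, a nucleolar protein. The bins at 171 to 172 Mb of chromosome 1 and 127 to 128 Mb of chromosome 10 had 41 read pairs (13) and 25 in NCC (7.89), and those at 3 to 4 Mb of chromosome 7 and 54 to 55 Mb of chromosome 14 had 25 (12.8) and 21 (10.8). The second of these 4 bins holds Ndufa4l2, a mitochondrial protein. Of the 41 ESC read pairs of the first pair, 20 came from 1 interaction. On the same chromosome, among 1134 such pairs, the bins at 30 to 31 and 156 to 157 Mb of chromosome 2 led with 37 read pairs (10.1) and 58 in NCC (5.99). The bins at 45 to 46 and 127 to 128 Mb of chromosome 7 had 124 (9.14) and 97 (3.97), and the second of them holds Maz, a zinc finger factor that binds G-rich DNA. These pairs were ranked by their ESC ratio, and the 3 named pairs on different autosomes had an O/E of at least 7.89 in NCC. The next pair in rank, 3 to 4 Mb of chromosome 8 with 3 to 4 Mb of chromosome 11, had 10.7 in ESC and 6.56 in NCC Hi-C. The pair after it had 9.35 and 9.21. No structural variants of this line were analysed here, and the part of a rearranged chromosome in these values was not tested.

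Relative to expectation, contacts among gene-dense bins were slightly lower in NCC than in ESC Hi-C, although their read pairs on other autosomes rose from 126895 to 139355. The log2 ratio of NCC to ESC O/E on other autosomes was -0.055 (-0.066 to -0.044) for all members and -0.062 (-0.073 to -0.051) without chemosensory bins, from O/E of 1.28 and 1.34. Other bins of like G+C had -0.036 (-0.043 to -0.028) among themselves. It was lower in NCC for 119 of 171 autosome pairs, on 17 of 18 autosomes over 5 Mb and for 187 of 274 members. In FGFR1 HiChIP the ratio was -0.036 (-0.072 to 0.000), lower for 96 autosome pairs, and in CTCF HiChIP -0.056 (-0.111 to -0.001), lower for 97. With bins without a start the members that were not chemosensory moved the other way in Hi-C, from 0.703 to 0.727 (log2 ratio 0.046, 0.019 to 0.074). For chemosensory bins among themselves the interval of the NCC to ESC difference, -0.18 to 0.61 in Hi-C, spans 0. These differences are small, and with 1 merged table per state it could not be tested whether they exceed the spread between cultures.

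O/E was somewhat higher in HiChIP than in Hi-C, both among members and among other bins of like G+C. Without chemosensory bins the log2 ratio of O/E to that of Hi-C on other autosomes was 0.052 (0.025 to 0.080) for FGFR1 and 0.058 (0.019 to 0.098) for CTCF in ESC, and 0.096 (0.068 to 0.123) and 0.062 (0.020 to 0.103) in NCC. Over 5 Mb on the same chromosome it was 0.097 and 0.050 in ESC and 0.118 and 0.104 in NCC for FGFR1 and CTCF. The other bins of like G+C had 0.050 and 0.062 in ESC and 0.082 and 0.048 in NCC on other autosomes, and 0.074, 0.037, 0.121 and 0.074 over 5 Mb.

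The number of ends per bin changed little between ESC and NCC in Hi-C in most members, while chemosensory bins, like bins without a start, changed more. Libraries were scaled to the same autosomal ends, and a bin was counted as changed when its log2 ratio was 0.32 or more in size. In Hi-C 32 of 278 members with ends in both states were past it, 11.5% against 26.3% of all bins. Of these, 12 were higher in NCC (9.97% of all bins were) and 20 lower (16.4%). The chemosensory bins accounted for 5 of the higher and 16 of the lower ones, out of 31 (67.7%), and 64.2% of bins without a start were past the limit. The other 247 members had 7 higher and 4 lower, and their median log2 ratio was -0.03, beside -0.37 in chemosensory bins, -0.19 in bins without a protein-coding start, 0.00 in other bins and 0.05 in other bins of like G+C.

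The largest Hi-C changes among members with at least 200 ends in both tables were in bins of receptor genes and in a bin of Pramef genes. The olfactory receptor bin at 111 to 112 Mb of chromosome 2 had 742 ends in ESC and 2982 in NCC, a log2 ratio of 1.97 (1.83 to 2.11). The Pramef bin at 144 to 145 Mb of chromosome 4, a family of germline and early embryo genes, had 3.17 and 7.22 ends per kb (1.15). The vomeronasal bin at 57 to 58 Mb of chromosome 6, which holds Vmn1r24, went the other way, from 3.58 to 0.349 ends per kb (-3.39, -3.58 to -3.21), and anchors covered 18.9% of it in ESC and 1.88% in NCC. The olfactory receptor bins at 88 to 89 Mb of chromosome 2, which holds Olfr1188, and 19 to 20 Mb of chromosome 9 had 3.17 and 4.82 ends per kb in ESC and 0.762 and 1.16 in NCC, a log2 ratio of -2.09 in both. In FGFR1 HiChIP these bins took another course. The Vmn1r24 bin had 669 ends in ESC and 708 in NCC, a scaled log2 ratio of -0.18 (-0.36 to 0.00). The Olfr1188 bin had 520 and 1218 (0.96, 0.78 to 1.14), and the bin on chromosome 9 had 649 and 1369 (0.81, 0.64 to 0.98). At 111 to 112 Mb of chromosome 2 FGFR1 HiChIP had 979 and 1223 (0.06, -0.1 to 0.21).

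In FGFR1 HiChIP members lost share in NCC relative to other bins. Of 278 members, 105 were past this size (35.5% of all bins were), 84 of them lower in NCC (11.8% of all bins) and 21 higher (23.7%). The median log2 ratio was -0.25 in members that were not chemosensory, 0.22 in chemosensory bins, 0.08 in other bins and -0.16 in other bins of like G+C, and the members had the lower median on 19 of 19 autosomes. Against the median of all bins of their G+C class, members included, 13.7% of members were past this limit. The share of all bins past it on that measure was not computed. Among members that fell were 21 to 22 Mb of chromosome 9, with Icam5, an adhesion molecule of neurons, and Carm1, an arginine methyltransferase (5.78 to 4.17 ends per kb, log2 ratio -0.74), and the bin of Comp on chromosome 8 (5.55 to 4.09, -0.71). The highest ratios were at 43 to 44 Mb of chromosome 14 (1.11) and in 2 olfactory receptor bins, 13 to 14 Mb of chromosome 19 (0.99) and 88 to 89 Mb of chromosome 2 (0.96).

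In CTCF HiChIP 85 of 279 members were past this limit (36.1% of all bins), 68 lower in NCC (14.1% of all bins) and 17 higher (22.0%). The median log2 ratio was -0.11 in members that were not chemosensory, -0.18 in chemosensory bins, 0.05 in other bins and -0.11 in other bins of like G+C. The bin at 88 to 89 Mb of chromosome 16, with keratin-associated protein genes of the hair shaft, rose from 0.51 to 0.921 ends per kb (1.06). The prolactin bin on chromosome 13 had a log2 ratio of 0.72, while its Hi-C ends went from 2764 to 1545. The lowest ratios were at 13 to 14 Mb of chromosome 19 (-0.93), 3 to 4 Mb of chromosome 8 (-0.80) and 43 to 44 Mb of chromosome 7 (-0.65).

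The 2 Hox members did not move past this limit in any assay. The bin at 96 to 97 Mb of chromosome 11, with 10 Hox genes among 26, had 52.5 ends per kb in ESC and 57.7 in NCC Hi-C (log2 ratio 0.10, 0.08 to 0.12), 5.58 and 6.01 in FGFR1 HiChIP (-0.16) and 2.74 and 2.23 in CTCF HiChIP (-0.09). The bin at 102 to 103 Mb of chromosome 15, with 8 Hox genes among 38, had 50.9 and 49.3 in Hi-C (-0.08), 5.41 and 5.85 in FGFR1 HiChIP (-0.15) and 2.67 and 2.34 in CTCF HiChIP (0.01). Single Hox starts differed more, in counts that are not scaled for depth. Hoxb1, a hindbrain gene induced early by retinoic acid, had 745 and 859 ends at its start anchor in Hi-C. In FGFR1 HiChIP its start lay in no anchor in ESC and in an anchor with 147 ends in NCC. Hoxb5 had 417 and 662 in Hi-C and Hoxb2 had 1009 and 1221, with 178 and 225 in FGFR1 HiChIP. Hoxc8 went from 1819 to 793 in Hi-C, where in ESC its anchor also held the Hoxc9 start, and lay in no FGFR1 anchor. FGFR1 anchors held 5 of the 18 Hox starts in ESC (27.8%, 12.5 to 50.9) and 10 in NCC (55.6%, 33.7 to 75.4), intervals that overlap and that both span the 46.7% and 50.1% of all member starts in the same tables.

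**Figure D5:**
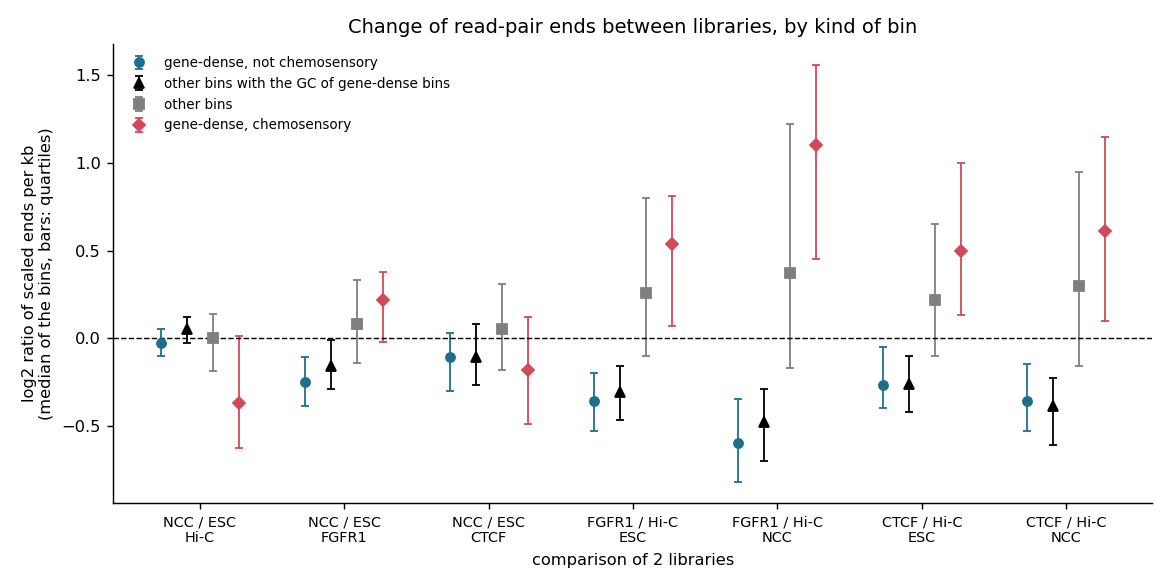
Median log2 ratio of ends per bin (marks, with bars from the lower to the upper quartile) in 7 comparisons, NCC over ESC for each assay and HiChIP over Hi-C in each state, for members that were not chemosensory, chemosensory members, other bins and other bins with like G+C. In FGFR1 HiChIP over Hi-C the first kind lies at -0.36 in ESC and -0.60 in NCC and the chemosensory bins at 0.54 and 1.1.

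Relative to Hi-C, both HiChIP assays had fewer ends in members that were not chemosensory and more in chemosensory bins, in bins without a start and in other bins as a whole. For FGFR1 in ESC, 177 of 278 members were past 0.32 on the log2 scale (58.9% of all bins), 142 lower than Hi-C (16.0% of all bins) and 35 higher (42.9%). For FGFR1 in NCC, 192 of 279 were lower (23.3%) and 40 higher (47.4%), 70.7% of all bins being past this limit. For CTCF, 92 of 278 were lower in ESC (13.5%) and 38 higher (38.7%), with 52.2% of all bins past it, and 143 of 279 were lower in NCC (19.6%) and 37 higher (44.6%), with 64.2%. The median log2 ratios for FGFR1 were -0.36 in members that were not chemosensory and 0.54 in chemosensory bins in ESC, and -0.60 and 1.1 in NCC. They were 0.26 and 0.37 in other bins, and 1.17 and 1.92 in bins without a start, above those of the chemosensory bins. The median log2 ratios for CTCF were -0.27 in members that were not chemosensory and 0.50 in chemosensory bins in ESC, and -0.36 and 0.61 in NCC. Other bins of like G+C had medians of -0.31 and -0.48 for FGFR1 (ESC, NCC) and -0.26 and -0.39 for CTCF, close to those of the members. Each member was also set against the median of all bins of its G+C class. That median included the members, which draws their values towards 0. By this measure 17.3% and 21.9% of members were past this limit for FGFR1 and 17% and 22.3% for CTCF. The CTCF medians were then 0.01 and 0.00. The share of all bins past the limit by this measure was not computed.

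The lowest ratios to Hi-C were spread over several chromosomes. The bin at 78 to 79 Mb of chromosome 15, which holds Card10, a signalling scaffold with 2445 ends at its start anchor, had 52150 Hi-C ends and 3387 FGFR1 ends in ESC, a log2 ratio of -0.98, and -1.35 in NCC. The Atp5d bin on chromosome 10 had -0.97 in ESC. The bin at 120 to 121 Mb of chromosome 5, with Lhx5, a forebrain transcription factor, had -0.90. For CTCF in ESC the lowest were 24 to 25 Mb of chromosome 17 (-0.92), 77 to 78 Mb of chromosome 10 (-0.73), which holds the collagen gene Col18a1, and the Card10 bin (-0.72). At the other end was the olfactory receptor bin at 111 to 112 Mb of chromosome 2 in ESC, at 3.36 for FGFR1 and 3.01 for CTCF. In NCC the Vmn1r24 bin on chromosome 6 had 3.75 for both factors, and the Olfr1188 bin on chromosome 2 had 3.41 and 3.35. These 3 bins are among those with the largest Hi-C differences between the states given above, and both kinds of ratio rest on the same Hi-C tables.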

How the data were processed

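Hi-C, FGFR1 HiChIP and CTCF HiChIP were measured in ESC and NCC, with 6 deposited tables in all, grouped by the labels. According to the labels and the study's methods, the authors merged 2 biological replicates per table and called anchors in each library, on genome build mm10; the methods name HiC-Pro and hichipper for these tables, whose versions are not given in the sources used here. The deposited values are whole counts of read pairs per anchor pair. The study's methods state that the numbers of valid pairs were normalized between ESC and NCC for comparisons. Whether this was done before these counts were made is not stated. No table held columns of other samples (0).

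Anchors were assigned to 1 Mb bins of GRCm38 by their midpoint (every anchor boundary lies at a GATC site of that build), and a pair within 1 anchor gave 2 ends. Bins needed 500 kb of known bases. Expected contacts came from factors fitted to each bin's inter-chromosomal total or, on the same chromosome over 5 Mb apart (at least 6 bins), to its total and the distance. Poisson intervals are exact, intervals of shares are Wilson's, both at 95%, and intervals of log2 ratios use the delta method. The merged replicates could not be separated, so no p-values were computed, and "changed" means past a log2 ratio of 0.32 after scaling to equal autosomal ends. The fit was tested on simulated data with known contacts. Outlying bins lay beyond 3 scaled median absolute deviations. The text names the bins with most genes, most ends and the largest changes per comparison, and the pairs of bins with the highest O/E among those with at least 20 read pairs. The minimum of 200 ends in both tables for the named changes, and the alternative without members under 200 ends, were chosen after seeing the data. The members and gene lists were chosen with earlier results of these data known. Alternatives were a fold of 1.5, a minimum score of 2, each interaction counted once, other limits of starts, G+C classes 1 percentage point wide and members without chemosensory bins, among others. Python 3.11.15, numpy 2.4.6, pandas 2.3.3, scipy 1.17.1 and matplotlib 3.10.9 were used.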

Additional observations from a re-analysis of the deposited data

Results flagged for a closer look

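In chemosensory bins the change from ESC to NCC had a different direction in the assays. The median log2 ratio of NCC to ESC ends was -0.37 in Hi-C, 0.22 in FGFR1 HiChIP and -0.18 in CTCF HiChIP. These medians were picked out because they differ between assays under the same contrast. Bins without a protein-coding start showed a like split between Hi-C (-0.19) and FGFR1 HiChIP (0.40), with 0.23 in CTCF HiChIP. Each assay had 1 merged table per state, so the difference was not tested.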

How the results depend on the processing

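No paired analysis was possible because the replicates are merged in each deposited table, and none could be left out. The share of members above the median of other bins stayed within 1.5 times its value in 66 of 66 alternatives (50.2% to 89.9%). The lowest of these is no higher than the 52.5% to 53.8% of all bins above that median in the main setting. Staying within this limit therefore does not show that members remained above other bins. The ratio of the median ends per kb of members to that of other bins moved in 22 of 66, and was lowest within G+C classes (1.14 in ESC and 1.06 in NCC Hi-C, 1.08 and 1 in FGFR1, 1.14 and 1.07 in CTCF HiChIP). Other shares moved further in some, and the cause was not tested. Without chemosensory bins 4.45% of members were past a log2 ratio of 0.32 between NCC and ESC in Hi-C. Members were also set against the median of all bins of the same G+C class (1 percentage point wide), members included. The share past it was then 13.7% for FGFR1 between NCC and ESC. For HiChIP over Hi-C it was 17.3% (FGFR1) and 17% (CTCF) in ESC and 21.9% and 22.3% in NCC. The CTCF medians turned from below 0 to 0.01 in ESC and 0.00 in NCC. Since members help set that median, these values are drawn towards 0. A fold of 1.5 left 6.83% (Hi-C), 6.47% (FGFR1) and 6.81% (CTCF) between NCC and ESC, and for HiChIP over Hi-C 25.2% (FGFR1, ESC), 15.1% (CTCF, ESC) and 28.3% (CTCF, NCC). With each interaction counted once, the CTCF share over Hi-C in ESC was 25.5% and the Hi-C median of NCC over ESC was 0.00. For the G+C classes, the fold of 1.5 and interactions counted once, the share of all bins past the limit was not computed. With a score of at least 2, the autosome pairs above expectation were 51.5% and 49.7% in Hi-C (ESC, NCC), 17% and 14% in FGFR1 and 8.77% and 4.09% in CTCF HiChIP, with an O/E of 0.982 in NCC CTCF, and the autosomes above it over 5 Mb were 50%, 46.7%, 41.7% and 60% in the 4 HiChIP tables.

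Depth limits the HiChIP contacts: up to 16 members had under 200 ends in 1 table. Merged tables give no spread between cultures, so small differences between ESC and NCC have counting intervals alone. Mappability was not analysed here, and the part of G+C content in the results was not tested beyond the comparisons within G+C classes.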
